A study of Mus musculus with 4 samples.

Results

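Signals were described for 10 immediate early genes of neuronal activity in the left hippocampus: Fos, Jun, Junb, Egr1, Arc, Nr4a1, Dusp1, Dusp6, Homer1 and Ier2. Probe sets, the groups of short probes that each stand for a transcript, were taken where the platform annotation pairs them with a single gene symbol and that symbol is one of the 10. This gave 14 probe sets of 9 genes, out of 12422 probe sets for 8251 named genes, and no probe set was named Arc. The tissue came from male mice aged 12 months. Of 4 arrays, 2 held RNA of nontransgenic controls of the C57B6/SJL background and 2 held RNA of Tg2576 mice, called APPSw, which overexpress amyloid precursor protein with the Swedish mutation. The Tg2576 transgene is a human APP coding sequence driven by a hamster prion protein gene promoter, so it is not limited to a single cell type. The labels do not state whether the mice were littermates, how they were housed or how they were killed, and give no measure of their behaviour. They do not state that the arrays of a group came from different animals either, and the p-values given then cover only the spread between arrays, part of which may be technical. Of 15 listed markers of hippocampal principal neurons, 14 were measured above the filter described below. APPSw 1 stood apart in markers of the choroid plexus, which lies beside the hippocampus, with a summed signal of 133324 against 13861 to 23199 on the other 3 arrays, and the differences that matter are therefore also given without it.

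Immediate early genes are transcribed within minutes of synaptic stimulation, without new protein synthesis, and their transcripts are short-lived. Calcium entry through NMDA receptors and voltage-gated channels activates kinase cascades, which act on CREB and on serum response factor with its ETS partners already bound at the promoters. Fos, Jun and Junb encode subunits of the AP-1 transcription factor, Egr1 and Nr4a1 encode a zinc finger factor and an orphan nuclear receptor, Dusp1 and Dusp6 encode phosphatases that switch MAP kinases off again, and Homer1 encodes a postsynaptic scaffold. In hippocampal neurons some of them, such as Fos, are widely used as markers of recent activity.

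The promoter windows of 5 of the genes are shown for matches to the element of CREB, which the Dusp6 window lacks. These windows were not tested for a tie to the group differences. They are from RefSeq (GRCm38.p6), run from 250 bases before to 50 bases after the annotated start on the gene's strand, and carry in capitals each match, on either strand, to the CREB element TGACGTCA or its core TGACG.
Fos, chr12:85473640-85473939, plus strand: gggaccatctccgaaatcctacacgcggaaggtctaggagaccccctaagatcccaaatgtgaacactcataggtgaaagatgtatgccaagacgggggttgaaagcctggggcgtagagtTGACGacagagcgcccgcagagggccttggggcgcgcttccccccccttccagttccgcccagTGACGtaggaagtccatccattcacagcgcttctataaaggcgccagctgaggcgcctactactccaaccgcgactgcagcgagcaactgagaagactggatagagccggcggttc
Junb, chr8:84978699-84978998, minus strand: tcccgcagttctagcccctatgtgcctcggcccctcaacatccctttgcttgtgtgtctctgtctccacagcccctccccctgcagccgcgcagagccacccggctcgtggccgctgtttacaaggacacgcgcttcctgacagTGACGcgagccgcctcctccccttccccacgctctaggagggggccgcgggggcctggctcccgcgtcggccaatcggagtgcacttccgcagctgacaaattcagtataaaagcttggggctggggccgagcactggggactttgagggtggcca
Nr4a1, chr15:101266596-101266895, plus strand: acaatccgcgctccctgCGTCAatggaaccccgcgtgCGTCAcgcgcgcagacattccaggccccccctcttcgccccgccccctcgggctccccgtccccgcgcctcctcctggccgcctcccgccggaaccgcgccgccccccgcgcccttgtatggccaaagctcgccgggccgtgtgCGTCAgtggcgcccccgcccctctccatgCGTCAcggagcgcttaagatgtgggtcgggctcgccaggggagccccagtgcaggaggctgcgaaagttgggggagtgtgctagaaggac
Dusp1, chr17:26508423-26508722, minus strand: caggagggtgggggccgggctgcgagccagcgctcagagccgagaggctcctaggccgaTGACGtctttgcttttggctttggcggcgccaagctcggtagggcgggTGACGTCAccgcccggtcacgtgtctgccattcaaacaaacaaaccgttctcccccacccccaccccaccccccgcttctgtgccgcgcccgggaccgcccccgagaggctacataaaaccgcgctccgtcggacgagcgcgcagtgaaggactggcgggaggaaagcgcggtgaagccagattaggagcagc
Dusp6, chr10:99262981-99263280, plus strand: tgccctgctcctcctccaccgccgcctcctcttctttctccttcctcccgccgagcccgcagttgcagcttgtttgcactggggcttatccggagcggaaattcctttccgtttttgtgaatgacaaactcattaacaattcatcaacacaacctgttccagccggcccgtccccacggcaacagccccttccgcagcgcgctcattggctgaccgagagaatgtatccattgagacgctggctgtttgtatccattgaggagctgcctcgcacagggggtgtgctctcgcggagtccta
Windows of 7 of the 10 genes were searched. Egr1 was set aside from the search and no window was at hand for Arc and Ier2, so the motif counts do not cover these genes. Fos held the CRE core 129 and 66 bases upstream of its start, followed by a TATAAA 33 bases upstream. Nr4a1 held 4 cores, all on the opposite strand, and Dusp1 held 1 full CRE, 143 bases upstream, which itself contains 2 cores, and 1 further core. Junb held 1 core, 106 bases upstream. The first of the 2 Homer1 starts held 3 cores within 56 bases of it, and the Dusp6 and Jun windows and the second Homer1 start held none.

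**Figure D1:**
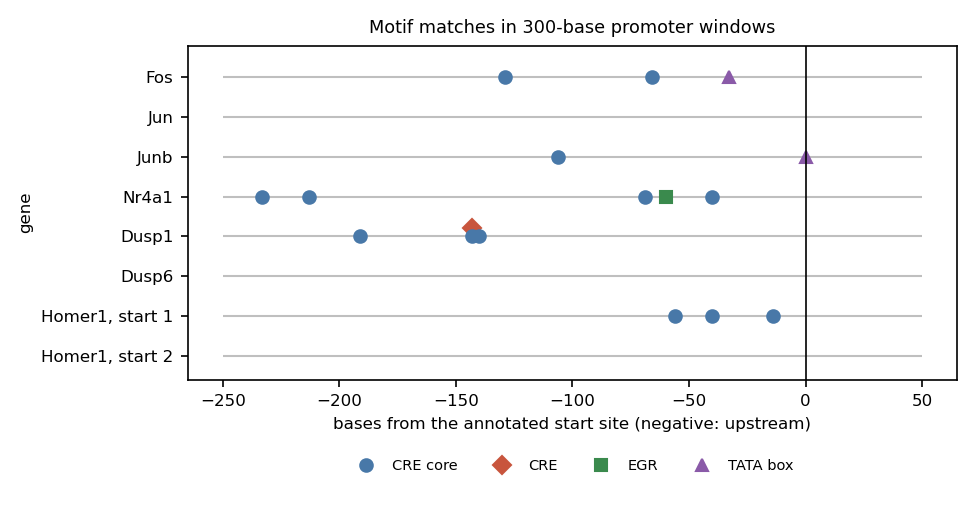
Positions of motif matches (symbols, plotted at their first base) in 300-base windows around annotated starts, with the start at 0 and upstream bases negative. The CRE core lay in 5 of 7 genes, the full CRE in Dusp1 only, and no symbol stands on the Jun, Dusp6 and second Homer1 lines.

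The CRE core lay in 5 of the 7 genes searched and in 20.8% of all 32851 windows of that length, and the full CRE in 1 of 7 and in 1.79%. The EGR element GCGNGGGCG was found in Nr4a1 only, against 5.55% of all windows, and TATAAA in Fos and Junb, against 13.6%. The Junb TATAAA began at the annotated start itself, not upstream of it. The CArG box of serum response factor, which 1.63% of windows hold, and the AP-1 element TGANTCA, which 7.81% hold, had no match in these windows. A match is a description of the letters, and elements farther from the start were not searched.

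By their brighter probe sets, Egr1 and Dusp6 had lower signals on both APPSw arrays than on both control arrays, by 1.76-fold and 1.54-fold (ratios of geometric means), and 1 of the Junb probe sets was lower by 1.62-fold. Fos, Jun, Dusp1 and Ier2 overlapped between the groups, and Nr4a1 was 1.095-fold lower with a narrow gap. None of these passed limma's test after Benjamini-Hochberg adjustment over all probe sets. In RNA of whole tissue, fewer cells of a type and less RNA per cell cannot be told apart. Of the 14 probe sets, 9 (8 genes) had a mean signal above a filter of 565 and entered the main test, all of them with every array above that value. With limma, 0 of these 9 passed the adjusted threshold of 0.05, as did 0 of the 7453 probe sets tested (0%), and no adjusted p was below 0.599.

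At an unadjusted p under 0.05, 3 of the 9 were lower on the APPSw arrays (Dusp6, Egr1 and a Junb probe set) and 0 were higher. Among all probe sets tested, 600 (8.05%) had such a p, 248 of them lower (3.33%) and 352 higher (4.72%). Both APPSw arrays lay below both controls for 4 of the 9, against 19.0% of all probe sets tested, and above both for 0 of the 9, against 22.2%. The log2 difference was below 0 for 6 of the 9, against 47.3%. The median log2 difference of the 9 was -0.197, beside 0.018 over all probe sets tested. These genes were chosen with earlier results of these data known, so the shares do not test them as a set. In alternatives chosen after seeing the data, the count of 3 was 0 without control 2, 4 without control 1, 2 without either APPSw array and 1 when no filter was applied. With 2 arrays a group, the smallest two-sided p of an exact permutation test is 0.333.

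**Figure D2:**
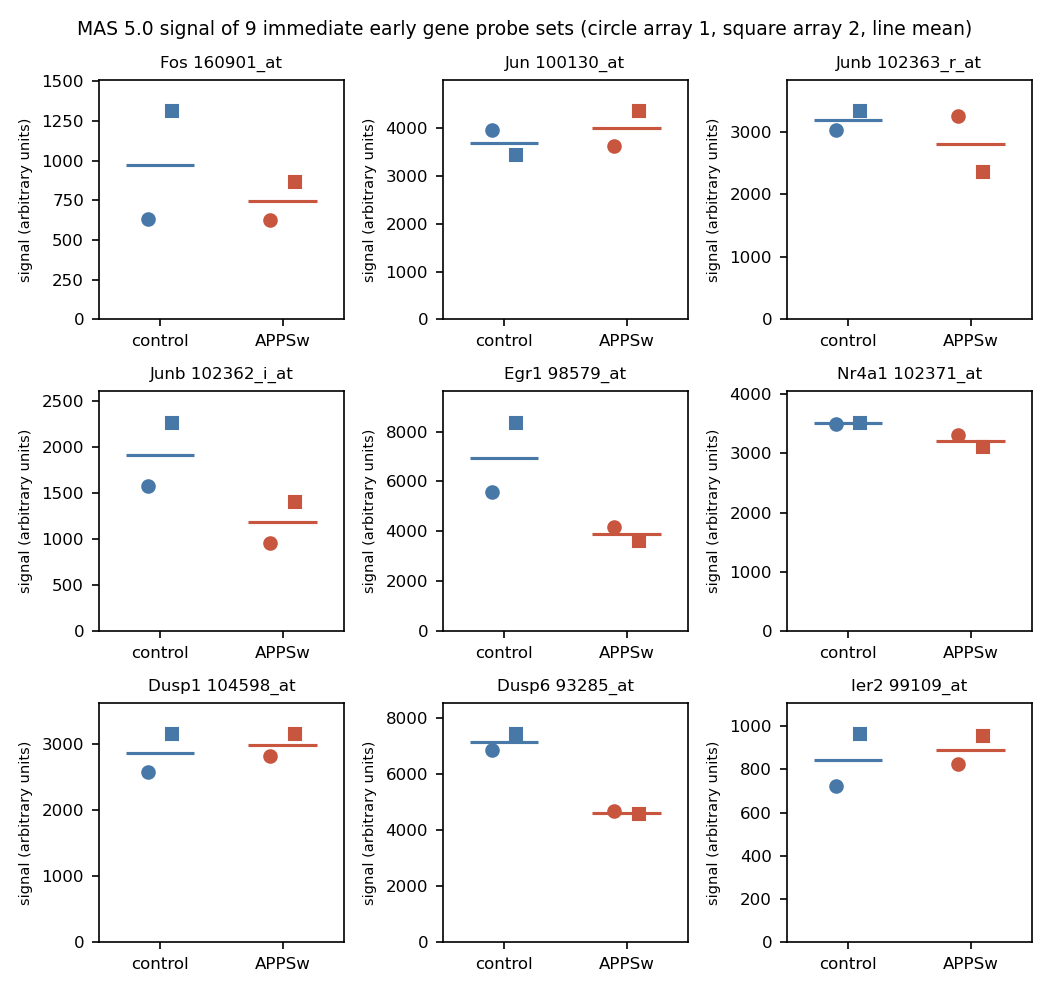
Signal in arbitrary units (vertical axis from 0) for the 9 probe sets above the filter, with controls in blue, APPSw arrays in red, circles for array 1, squares for array 2 and lines for group means. The Dusp6 and Egr1 points of the APPSw arrays lie below both control points, while those of Fos, Jun, Dusp1 and Ier2 overlap.

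A probe set's array-to-array spread is read here against its own group difference, since signals of different probe sets are not on a common scale. Egr1, a zinc finger transcription factor needed for lasting synaptic plasticity, had signals of 5559 in control 1 and 8358 in control 2, and of 4184 in APPSw 1 and 3600 in APPSw 2 (probe set 98579_at). Control 2 was the highest array, both APPSw arrays were lower than control 1, and the nearest arrays of the 2 groups were 1.33-fold apart. The group means were 6958 ± 1979 and 3892 ± 413 (SD, n = 2 each), for a log2 difference of -0.81 (SE 0.25, 95% interval -1.43 to -0.20, limma adjusted p = 0.599). The difference was -0.52 without control 2, -1.11 without control 1, -0.92 without APPSw 1 and -0.70 without APPSw 2. The controls themselves differed by 1.504-fold, more than in 90.5% of the probe sets tested, and the group difference kept its sign without either of them.

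Junb, the AP-1 subunit that limits the activity of Jun, had 2 probe sets above the filter, both of kinds for which the manufacturer relaxed its probe selection rules (suffixes i and r). Probe set 102362_i_at read 1575 and 2268 on control arrays 1 and 2, against 962 and 1409 on APPSw arrays 1 and 2. Both APPSw arrays were lower than both controls, but APPSw 2 was only 1.12-fold under control 1. Its log2 difference was -0.70 (SE 0.28, adjusted p = 0.612), and -0.42 without APPSw 1 and -0.44 without control 2. Probe set 102363_r_at read 3035 and 3327 on the control arrays against 3253 and 2362 on the APPSw arrays, which overlap. Its log2 difference was -0.197 (SE 0.22, adjusted p = 0.803), and 0.03 without APPSw 2. Both Junb probe sets thus had a difference below 0, but they disagreed on its size.

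Fos, the partner of Jun in AP-1 and a widely used marker of recently active neurons, was set apart by control 2. Its brighter probe set, 160901_at, had signals of 633 in control 1, 1312 in control 2, 629 in APPSw 1 and 867 in APPSw 2. Control 1 lay beside APPSw 1, and only control 2 was above both APPSw arrays. The log2 difference was -0.30 (SE 0.38, 95% interval -1.24 to 0.63, adjusted p = 0.829), and 0.22 without control 2. The controls differed by 2.07-fold, which exceeded the difference between controls in 98.2% of the probe sets tested.

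Jun, the other AP-1 subunit, read 3950 and 3425 on control arrays 1 and 2, against 3630 and 4348 on APPSw arrays 1 and 2. APPSw 1 lay between the controls, and the log2 difference of 0.11 (SE 0.192, adjusted p = 0.884) was -0.02 without APPSw 2. Nr4a1, the orphan receptor also called Nur77, read 3504 and 3517 on the control arrays against 3306 and 3109 on the APPSw arrays. Its groups did not overlap, but the nearest arrays were only 1.06-fold apart, and the log2 difference was -0.13 (SE 0.17, adjusted p = 0.832). The near-equal Nr4a1 controls differed by more than those of only 1.70% of the probe sets tested, and its SE is larger than their spread because limma draws each variance towards that of all probe sets. Ier2, a short rapidly induced nuclear protein, read 723 and 962 on the control arrays against 822 and 954 on the APPSw arrays. Both APPSw arrays lay between the controls, with a log2 difference of 0.09 (SE 0.21, adjusted p = 0.920) that was -0.02 after quantile normalization.

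Of the phosphatases, Dusp6 separated the groups and Dusp1 did not. Dusp6, a cytoplasmic phosphatase specific for ERK and itself induced by ERK signalling, read 6887 and 7435 on control arrays 1 and 2, against 4687 and 4581 on APPSw arrays 1 and 2 (probe set 93285_at). The arrays within each group lay close together, 1.08-fold apart in controls and 1.02-fold in the APPSw group, and the nearest arrays of the groups were 1.47-fold apart. Group means were 7161 ± 387 and 4634 ± 75 (SD, n = 2 each), for a log2 difference of -0.63 (SE 0.17, 95% interval -1.05 to -0.21, adjusted p = 0.599). With an array left out it stayed between -0.68 and -0.57, a narrower range than for any other probe set of these genes above the filter except Nr4a1.

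Dusp1, a nuclear phosphatase of JNK, p38 and ERK whose promoter holds the full CRE, read 2569 and 3144 on the control arrays against 2817 and 3141 on the APPSw arrays. Both APPSw arrays lay between the controls. The log2 difference was 0.07 (SE 0.19, 95% interval -0.41 to 0.54, adjusted p = 0.932). It was -0.08 without control 1. The difference between the Dusp6 and Dusp1 effects was not tested.

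**Figure D3:**
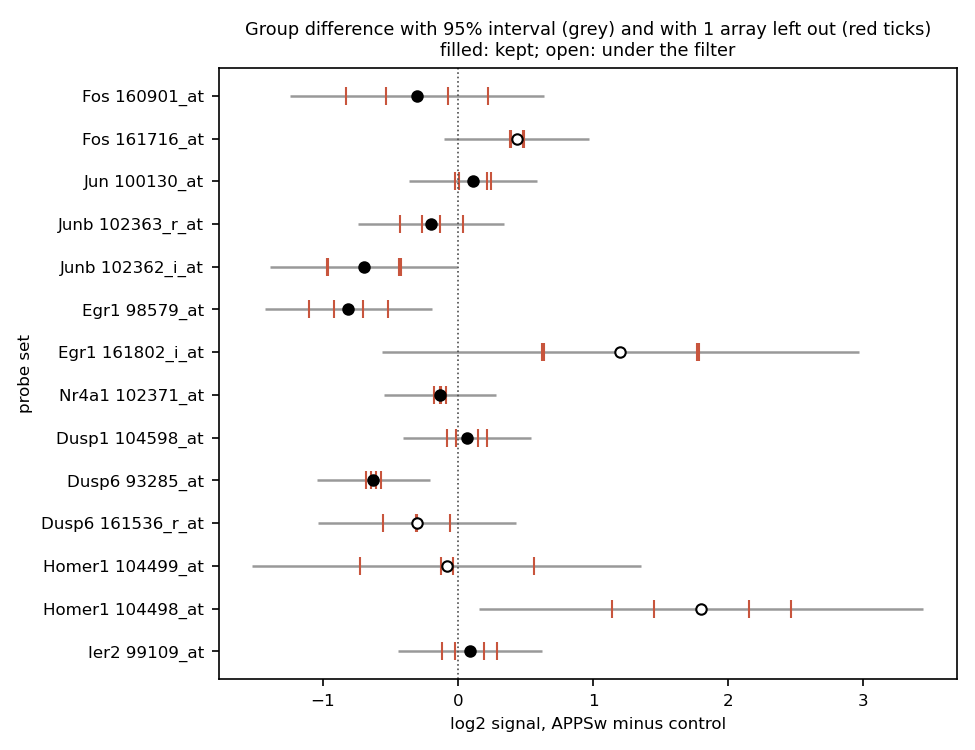
Log2 signal of APPSw minus control (horizontal axis) for all 14 probe sets, with limma's 95% interval in grey and the value with each array left out as red ticks. Filled points passed the filter and open points did not. The Egr1 98579_at, Dusp6 93285_at and Junb 102362_i_at points lie left of 0 with all their ticks, the Fos 160901_at ticks lie on both sides, and 3 of the 5 open points lie right of 0.

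Homer1, the scaffold that links metabotropic glutamate receptors to the postsynaptic density, is transcribed both as a long form present at rest and as a short form induced by activity. The sources used here do not give which form its probe sets read. Neither passed the filter, and the values that follow come from a fit of all 12422 probe sets. Probe set 104499_at had signals of 331 in control 1, 807 in control 2, 472 in APPSw 1 and 502 in APPSw 2. Both APPSw arrays lay between the controls, which differed by 2.44-fold, and the log2 difference was -0.08 (SE 0.51, adjusted p = 0.976). Without control 2 it was 0.56. Probe set 104498_at read 19.2 and 48.0 on the control arrays against 135 and 82.8 on the APPSw arrays, or 1.80 in log2 (SE 0.58, adjusted p = 0.736). These are among the dimmest values described here, and setting signals under 250 to that value leaves no difference to measure.

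Of the other 3 dim probe sets, 2 had the sign opposite to that of the brighter probe set of their gene. The second Fos probe set, 161716_at, read 203 and 191 on the control arrays against 257 and 276 on the APPSw arrays, or 0.43 in log2 (SE 0.19, adjusted p = 0.767), opposite in sign to -0.30 by the brighter one. The second Egr1 probe set, 161802_i_at, read 310 and 142 on the control arrays against 722 and 322 on the APPSw arrays, or 1.202 in log2 (SE 0.62, adjusted p = 0.770), opposite to -0.81. The second Dusp6 probe set, 161536_r_at, read 122 on both control arrays against 83 and 117 on the APPSw arrays, or -0.31 in log2 (SE 0.26, adjusted p = 0.812), of the same sign as the brighter one. Probe sets of a gene are not replicates, and why they disagree was not tested.

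Control 2 was the array with the higher signal of the controls for 8 of the 9 probe sets above the filter, Jun being the exception, against 51.0% of all probe sets tested. For 2 of the 9, Fos and Egr1, the controls differed by 1.5-fold or more, against 9.66% of all. The median of the 9 lay at -0.15 in control 1, 0.15 in control 2, -0.09 in APPSw 1 and -0.175 in APPSw 2, in log2 relative to the control mean of each probe set. On the median, control 1 thus lay between the APPSw arrays, and control 2 above all of the other 3. As a reading of RNA quality, the 3′ over 5′ signal ratio of the manufacturer's control probe sets was 0.831 to 0.925 for Gapdh and 1.17 to 1.34 for beta-actin. Control 2 had 0.858 and 1.17, the latter being the lowest of the 4 arrays, and the part of RNA quality in its higher signals was not tested.

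**Figure D4:**
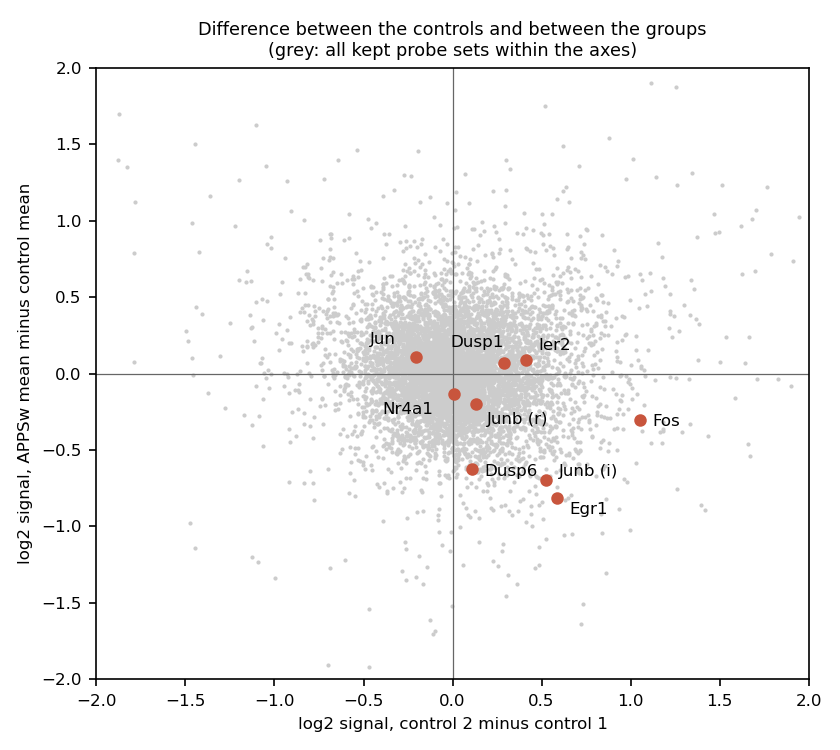
Log2 difference between the controls (control 2 minus control 1, horizontal) and between the groups (APPSw minus control, vertical) for all tested probe sets within the axes in grey and the 9 immediate early gene probe sets in red, with (i) and (r) marking the Junb probe sets. Both axes use the control arrays and are not independent. Of the red points Fos lies farthest right at 1.05, and Egr1 lies lowest at -0.81 with a control difference of 0.59, while Dusp6 at -0.63 has a control difference of 0.11.

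The genes whose pattern over the 4 arrays was most like that of Fos were Sgip1, a regulator of endocytosis, Spin1, a histone reader, and Gpank1. Their root mean square distances from Fos were 0.043, 0.084 and 0.095 in log2, among 1272 named probe sets with a comparable range. Sgip1 read 1491 and 2898 on the control arrays against 1503 and 1993 on the APPSw arrays. On each of these genes control 2 was the highest array, which follows from choosing them by likeness to Fos. The likeness is a description over 4 arrays.

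Other activity-regulated genes, in lists chosen with earlier results of these data known, did not share a direction. By limma 0 genes of these lists passed the adjusted threshold. Of 7 other AP-1 factors 5 were above the filter, 3 higher and 2 lower, with a median log2 difference of 0.36 and 0 at an unadjusted p under 0.05. That median is the value of 1 gene, Fosb, and was 0.013 without control 1, 0.11 without APPSw 2 and -0.16 with the filter at the 60th percentile. Fosb, the relative of Fos whose stable splice form accumulates with repeated activity, read 1978 and 2756 on the control arrays against 2773 and 3236 on the APPSw arrays, or 0.36 in log2 (SE 0.23). The stress-induced factor Atf3 differed by 0.397 above the filter, while its pair of dimmer probe sets gave -0.89 and 0.38. Jund differed by -0.199 and Mafk by -0.16.

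Of 12 other EGR, NR4A and KLF factors and EGR corepressors, 5 were above the filter, 2 higher and 3 lower, with a median of -0.04, which was 0.08 without APPSw 2, 0.017 without control 2 and -0.15 without APPSw 1. Nr4a2, a relative of Nr4a1, read 1488 and 2695 on the control arrays against 2292 and 2817 on the APPSw arrays, or 0.34 in log2 (SE 0.32), and 0.47 by its second probe set. Control 1 was the lowest array, and APPSw 1 lay between the controls. Klf6 differed by 0.44 and Nab1, a corepressor bound by EGR proteins, by -0.19. Klf10 differed by -0.17, and by -0.62 by its second probe set. Of 9 other dual-specificity phosphatases 3 were measured: Dusp16 differed by 0.46, Dusp8 by 0.08 and Dusp2 by -0.05. The dim second probe set of Dusp16 differed by -1.01 and the second of Dusp8 by 0.25.

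Of 26 other rapidly induced genes 16 were above the filter, 7 higher and 9 lower, with a median of -0.0073 and 0 at an unadjusted p under 0.05. The median lay between -0.16 and -0.04 with an array left out and was 0.03 with no filter. The clock gene Per1 read 2328 and 2798 on the control arrays against 1803 and 2004 on the APPSw arrays, or -0.43 in log2 (SE 0.19), and Mcl1, a survival factor of the BCL2 family, differed by -0.42 (SE 0.18). Gadd45g, a growth arrest gene, differed by 0.32 and the kinase gene Sgk1 by 0.34.

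Of 18 later response genes of neurons 13 were above the filter, 6 higher and 7 lower, with a median of -0.07. The median was 0.04 without control 1, -0.17 without control 2, -0.11 without APPSw 2 and 0.03 with the probe sets of a gene averaged. At an unadjusted p under 0.05, 2 were lower and 0 higher. Nptx1, a neuronal pentraxin that clusters glutamate receptors, read 11059 and 15508 on the control arrays against 4231 and 8422 on the APPSw arrays, or -1.13 in log2 (SE 0.37, adjusted p = 0.599). Its difference was -0.64 without APPSw 1. Syt4, a synaptotagmin, read 1216 and 1279 on the control arrays against 945 and 831 on the APPSw arrays, or -0.49 in log2 (SE 0.18, adjusted p = 0.609). Homer2, a relative of Homer1, differed by 0.66 (SE 0.28), and Nptx2 by 0.20. Without APPSw 1 the Homer2 and Nptx2 differences were 0.28 and -0.07.

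Of 47 upstream regulators 24 were above the filter, 10 higher and 14 lower, with a median of -0.06. It was 0.06 without control 2, -0.22 without control 1, -0.26 without APPSw 1, -0.0086 without APPSw 2 and 0.00058 with no filter. The 1 gene at an unadjusted p under 0.05, Mef2c, a calcium-regulated transcription factor, read 2363 and 2799 on the control arrays against 4234 and 5653 on the APPSw arrays, or 0.93 in log2 (SE 0.22, adjusted p = 0.599), by the brightest of its 4 probe sets. The others gave 0.65 (limma unadjusted p = 0.015), 0.51 and, by the dimmest, -0.06. The stress kinase genes Mapk8 and Mapk14 differed by 0.38 and -0.44, a dim second Mapk8 probe set by -0.48, and Prkaca, the catalytic subunit of protein kinase A, by -0.49. Over all 5670 genes tested the median was 0.0088, with 220 higher and 170 lower at an unadjusted p under 0.05.

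**Figure D5:**
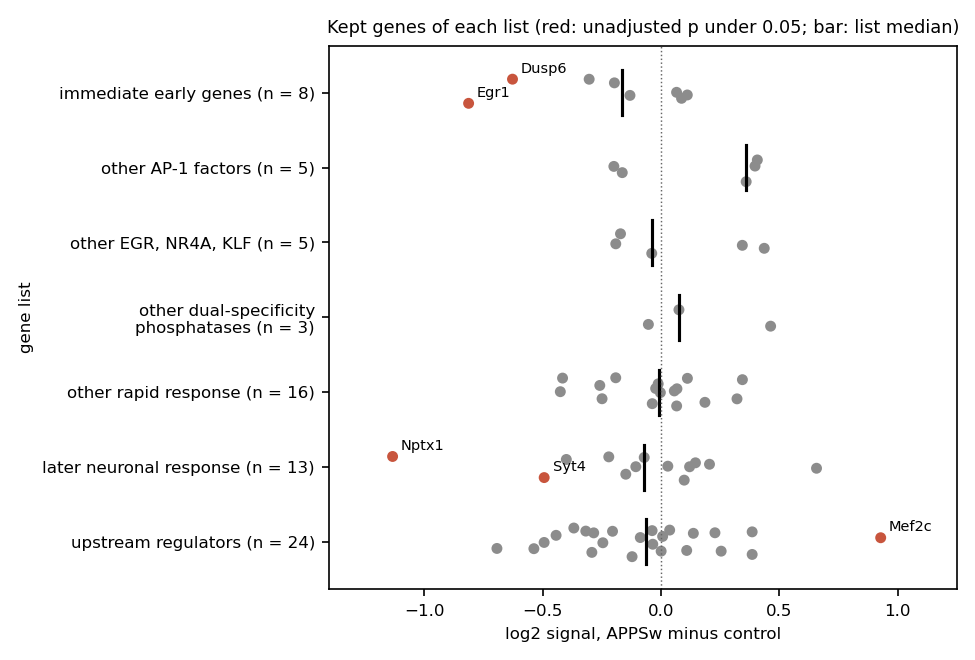
Log2 signal of APPSw minus control (horizontal axis) for each gene above the filter, by list, each gene by its probe set with the highest mean signal. Red points have an unadjusted p under 0.05 and black bars are list medians, from -0.164 for the 8 immediate early genes to 0.36 for other AP-1 factors, the latter being 0.013 without control 1.

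Markers of hippocampal principal neurons, the cells in which these genes are mostly studied, had a median log2 difference of -0.33, with 11 of 14 measured genes lower and 4 lower at an unadjusted p under 0.05. Of all 5670 genes tested, 2749 were lower, 170 of them at such a p. The summed signal of the principal neuron markers was 129053 to 144023 on the control arrays and 122465 to 126193 on the APPSw arrays. The brightest of them, Chgb, went the other way, by 0.22, with both APPSw arrays above both controls. For the 9 pan-neuronal markers measured the median was -0.23, 7 lower, with sums of 207715 to 223463 and 200116 to 211568. The brightest of these, Snap25, differed by -0.02. Within the controls the principal neuron markers were lower in control 2 than in control 1, by a median of -0.24 in log2, the array in which Egr1 and Fos were higher. Markers of interneurons were evenly split, 4 higher and 4 lower, with a median of -0.05 and sums of 143690 to 150156 on the control arrays and 133956 to 149845 on the APPSw arrays. Cck, the brightest interneuron marker, differed by 0.04.

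Lists of markers of other cells and of tissue beside the hippocampus had medians on both sides of 0, and none of their genes passed the adjusted threshold by limma. All 7 meningeal and fibroblast markers measured were higher on the APPSw arrays by group mean, with a median of 0.57 and 2 of them at an unadjusted p under 0.05, and their sums were 50789 and 60559 on control arrays 1 and 2 against 90294 and 60923 on APPSw arrays 1 and 2. All 5 choroid plexus markers measured were higher by group mean, with a median of 1.12, but this came from APPSw 1. Their sums were 23199 and 13861 on control arrays 1 and 2 against 133324 and 16893 on APPSw arrays 1 and 2. On APPSw 2 alone their median lay at -0.34 relative to the control mean. All 3 markers of the neocortex measured were higher too, with a median of 0.22 and sums of 11611 to 12136 on the control arrays and 15464 to 16784 on the APPSw arrays. Among them Fezf2, a transcription factor of deep-layer cortical neurons, read 4410 and 3797 on the control arrays against 7471 and 7451 on the APPSw arrays, or 0.87 in log2 (SE 0.18, limma adjusted p = 0.599), with both APPSw arrays above both controls. The 1 red blood cell marker measured, the haemoglobin gene Hba-a1, read 8678 and 10811 on the control arrays against 11324 and 19525 on the APPSw arrays, or 0.62 in log2 (SE 0.30).

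All 7 oligodendrocyte markers measured were lower, with a median of -0.28, 0 of them at an unadjusted p under 0.05, and sums of 96686 to 102517 on the control arrays and 78203 to 94431 on the APPSw arrays. Of 7 astrocyte markers 5 were lower, with a median of -0.14 and sums of 101922 to 102648 and 95066 to 102549. Of 5 markers of striatum and thalamus 4 were lower, with a median of -0.15 and sums of 15241 to 17074 and 12844 to 15871. Of 8 microglial markers 6 were higher, with a median of 0.11 and sums of 40061 to 45852 and 39220 to 43929. Of 7 endothelial and mural markers 3 were higher, with a median of -0.0011 and sums of 9067 to 10398 and 9037 to 9316. At an unadjusted limma p under 0.05, 1 marker was lower and 0 were higher in each of the microglial and the endothelial and mural lists. By the brightest gene of each of these lists, Mbp differed by -0.23, Aldoc by -0.11, Penk by -0.22, Ctss by 0.09 and Cldn5 by -0.0011. The brightest meningeal and choroid plexus genes, Ptgds and Igf2, differed by 0.40 and 1.12, and without APPSw 1 by -0.0041 and 0.28. The part of these differences in tissue markers, neuronal ones included, in the lower Egr1 and Dusp6 signals was not tested. Without APPSw 1, the array with the high choroid plexus markers, the Egr1 and Dusp6 differences were -0.92 and -0.64, each resting on a single APPSw array. The part of the choroid plexus signal in them was not tested. The remaining APPSw array also differed from the controls in other markers. Its principal neuron and oligodendrocyte medians lay at -0.62 and -0.36 in log2 relative to the control mean, against -0.25 and -0.09 on APPSw 1. Pan-neuronal and astrocyte medians went the other way, at -0.06 and 0.008 against -0.26 and -0.20 on APPSw 1.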

How the data were processed

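Per the labels, the authors made signal intensities with MAS 5.0 and scaled each array to 2500. The deposited table gives 1 linear intensity per probe set and array. The sources used here do not give background settings, labelling, scanner or detection calls. After 66 manufacturer's controls were left out, 12422 probe sets remained, of which 10833 have 1 gene symbol, 396 several and 1193 none in the platform annotation. Log2 intensities were fitted by group with lmFit and eBayes (limma 3.58.1, R 4.3.3, two-sided), without further normalization, over the 7453 probe sets at or above the 40th percentile of mean log2 signal, with Benjamini-Hochberg adjustment and a threshold of 0.05. The number of arrays limits the precision, with 2 residual and 3.70 prior degrees of freedom. Probe sets under the filter take their values from a fit of all 12422. Intervals are limma's moderated ones. The fit was tested on simulated data drawn from its own variance model, and the outcome is not reported here.

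A gene in a list is read by its tested probe set with the highest mean signal. The members and lists were chosen with earlier results of these data known. All probe sets of the 10 genes are named, with 2 genes per direction of each list of induced or upstream genes by smallest p (fewer where a list had fewer) and the 3 genes most like Fos. Of each marker list the rule takes the gene with the highest mean signal, and each of these is printed. The other probe sets of named induced or upstream genes and the sums of the marker lists were added after their values were seen. Alternatives changed the normalization (quantile), the filter (none, or the 60th percentile), the treatment of low values (a pseudocount or a floor, each of 250), the model (a replicate block, or a prior variance with an intensity trend) and the summary of genes with several probe sets (their mean). Each array was also left out in turn, with the spread of the remaining pair then standing for both groups.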

Additional observations from a re-analysis of the deposited data

How the results depend on the processing

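Under each alternative 0 probe sets passed the adjusted threshold over all probe sets tested. The count of lower immediate early gene probe sets at an unadjusted p under 0.05, an alternative set added after the data were seen, went from 3 to 1 with no filter and ranged from 0 to 4 with an array left out. The median over the 8 genes was -0.16, between -0.198 and -0.05 with an array left out and -0.22 with probe sets averaged by gene. Sign changes came mostly from single arrays: with an array left out, Fos 160901_at ranged from -0.83 to 0.22, Jun from -0.019 to 0.24, Junb 102363_r_at from -0.43 to 0.034, Dusp1 from -0.080 to 0.21, Homer1 104499_at from -0.73 to 0.56 and Ier2 from -0.12 to 0.29. Ier2 was -0.024 after quantile normalization. The cause was not tested. Egr1 98579_at, Egr1 161802_i_at, Fos 161716_at, Nr4a1, both Dusp6 probe sets, Junb 102362_i_at and Homer1 104498_at kept their sign in every alternative that gave a value. A floor of 250 gave no value for Dusp6 161536_r_at and Homer1 104498_at, and the filter at the 60th percentile left out Fos, Ier2 and Junb 102362_i_at. Arrays with the same replicate number did not deviate together (correlation -0.02 over probe sets), so the numbers were not taken as pairs. With the replicate block, 0 probe sets passed, the count of lower immediate early gene probe sets stayed at 3, and the adjusted p was 0.601 for Egr1 and 0.619 for Dusp6.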
